A study of Mus musculus with 2 samples.

Results

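The 10 genes described here encode immunoglobulin cell adhesion molecules of axons: Ncam1, Ncam2, L1cam, Chl1, Nrcam, Nfasc, Cntn1, Cntn2, Alcam and Dscam. They were taken by name from a gene table of 55536 genes annotated by GENCODE M21, a mouse gene annotation on the mm10 genome build, and each name matched 1 gene. The libraries are polyA-plus RNA-seq of hindbrain dissected from healthy B6NCrl embryos of both sexes, 12.5 days old. The series holds 1 group of 2 biological replicates, pool 1 from 120 embryos and pool 2 from 88 embryos, with no treatment and no mutant allele named in the labels. Each pool mixes whole hindbrains, so a difference between pools cannot be tied to an animal. Values come from bulk tissue, in which fewer cells of a type and less RNA per cell cannot be told apart.

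Immunoglobulin cell adhesion molecules sit on the surface of growing axons and bind copies of themselves, each other or matrix proteins. Most have a row of immunoglobulin domains followed by fibronectin type III domains, and are held in the membrane either by a transmembrane segment or by a lipid (GPI) anchor. In the developing hindbrain they take part in axon bundling, midline crossing and the growth of cranial nerve and cerebellar axons. Alternative splicing of small exons changes their binding and their cytoplasmic tails.

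Reads assigned to genes, in expected (estimated) counts, came to 31469600 in pool 1 and 29261500 in pool 2. Levels below are in TPM (transcript abundance scaled by length and depth), of which genes held 92.0% in pool 1 and 89.7% in pool 2. The hindbrain genes Hoxa2 and Hoxb2 stood at 47.1 and 50.9 mean TPM (genes chosen after their values were seen). All 8 markers of postmitotic neurons and all 7 of progenitors and radial glia reached 1 TPM in both pools. Markers of mesenchyme, muscle, blood, endothelium, epithelium and choroid plexus were present too, all of them at 1 TPM or more in both pools.

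All 10 adhesion genes were expressed, at levels that spanned 66.9-fold from Ncam1 to Dscam. Each was at 1 TPM or more in both pools, where 61.8% of protein-coding genes were, and 9 of them remained at 5 TPM or more. Ncam1 alone held 38.4% of the summed TPM of the 10 genes in pool 1 and 40.3% in pool 2. The median of their mean levels was 38.5 TPM, beside 21.8 TPM over the 13619 protein-coding genes at 1 TPM or more in both pools. In descending order of mean TPM they were Ncam1, Nrcam, Cntn2, L1cam, Nfasc, Chl1, Alcam, Cntn1, Ncam2 and Dscam. L1cam, Nfasc and Chl1 are neighbours in this order whose values overlapped between the pools; every other pair of neighbours was apart in both. No test was made of the order, since 2 values against 2 cannot give a two-sided exact permutation p below 0.33.

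**Figure D1:**
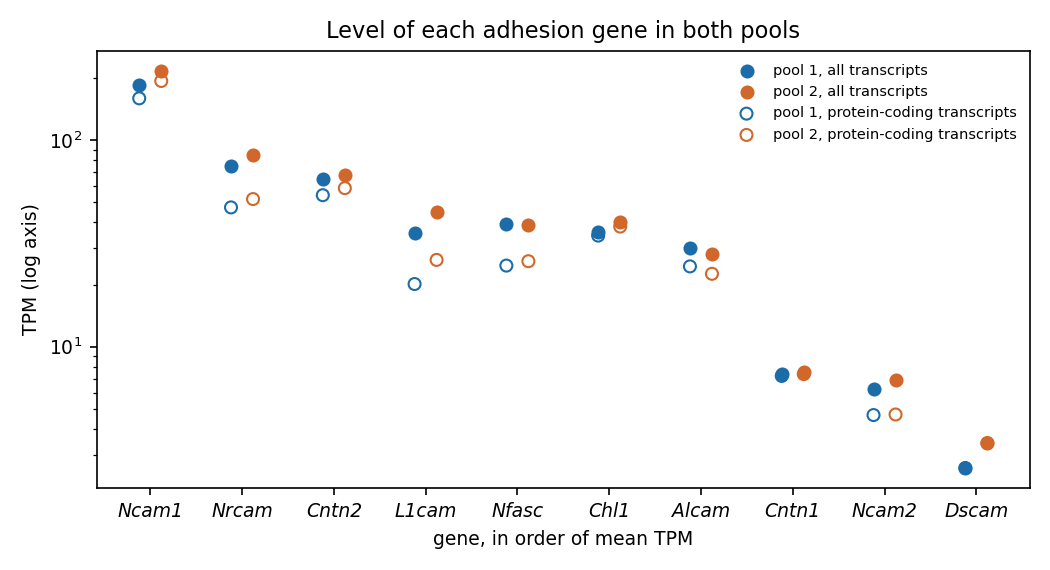
Level of each of the 10 genes in TPM on a log axis, with 1 point per pool; filled points count all annotated transcripts and open points only those annotated as protein coding. Ncam1 stands above all other genes in both pools, and the gap between filled and open points is widest for L1cam, Nrcam and Nfasc.

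Ncam1 encodes the neural cell adhesion molecule, which binds itself between cells and carries polysialic acid in the embryo. Its level was 185 TPM in pool 1 against 217 TPM in pool 2, with a mean of 200.9 ± 22.6 TPM (SD, n = 2), above 95.4% of the 16100 genes at 1 TPM or more in both pools. It is ENSMUSG00000039542.16 at chr9:49502136-49798925 of mm10, minus strand. Its paralog Ncam2, known from olfactory axons, was at 6.21 and 6.91 TPM in pools 1 and 2. Ncam2 is ENSMUSG00000022762.18 at chr16:81200697-81626828, plus strand. The first of the pair therefore exceeded the other in both pools by far more than the pools differed.

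Ncam1 transcripts were mostly of the transmembrane form with the shorter cytoplasmic tail. The 2 complete models with that tail, Ncam1-204 and Ncam1-202, took 67.0% of Ncam1 TPM in pool 1 and 68.3% in pool 2. Ncam1-205, the model with the 801-base exon that lengthens the tail (chr9:49506853-49507653), is annotated as incomplete and took 18.8% and 20.5%. Of the TPM on these 2 forms, 22.5% ± 0.793 (SD, n = 2) was thus on the long-tailed one. Ncam1-201, which ends in the coding sequence of the GPI-anchored form, took 0.0703% and 0.0968%. A 2-exon transcript without a coding sequence, Ncam1-207 (914 bases), took 13.9% and 10.9% of TPM, but only 2.14% and 1.63% of the Ncam1 counts.

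Ncam1-205 is also the one model that holds the 30-base exon in the fourth immunoglobulin domain, known as VASE, so the 2 features could not be measured apart. A group of small exons further on is known from muscle Ncam1 as the muscle-specific domain. At that site Ncam1-205 holds the 15-base exon and a 3-base exon, so these were tied to the same model. Each was in 21.9% of the TPM that held or skipped it in pool 1 and 23.0% in pool 2. The 30-base exon and the exons of 15, 48 and 42 bases of that domain are shown because they are the sequences by which these forms differ. Capitals mark the exon and lower case 15 bases on either side in the spliced transcript, all 5′ to 3′ on the minus strand of chromosome 9, from the GENCODE M21 transcripts (mm10).
Ncam1 30-base exon, chr9:49550540-49550569: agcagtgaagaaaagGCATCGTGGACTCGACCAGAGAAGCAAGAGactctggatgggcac
Ncam1 15-base exon, chr9:49541888-49541902: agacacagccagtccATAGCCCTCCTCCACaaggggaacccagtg
Ncam1 48-base exon, chr9:49536990-49537037: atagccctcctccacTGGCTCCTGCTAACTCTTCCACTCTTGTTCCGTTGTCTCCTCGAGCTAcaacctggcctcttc
Ncam1 42-base exon, chr9:49535209-49535250: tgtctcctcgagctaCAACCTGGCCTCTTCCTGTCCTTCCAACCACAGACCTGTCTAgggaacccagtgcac

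The 48-base and 42-base exons occur in a single annotated model, Ncam1-206, a fragment of 146 bases. It had no count in either pool, which at its effective length of 47 bases allows up to 3.20 TPM in pool 1 and 3.47 TPM in pool 2 (3 counts, counting error only). The 48-base and 42-base exons were therefore not detected, with a limit set by the shortness of this one model. The muscle markers summed to 33.99 TPM in the first pool against 169 TPM in the other.

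Ncam2 has 2 coding models that end differently. Ncam2-202, with the longer coding sequence (837 codons) of the transmembrane form, took 36.1% of Ncam2 TPM in pool 1 and 38.8% in pool 2. Ncam2-201, with the shorter one (727 codons) of the GPI-anchored form, took 39.1% and 29.2%. Which of them led by TPM differed between the pools, as for 9.16% of the 11979 multi-transcript protein-coding genes compared. Ncam2 was the 1 adhesion gene of which this was true. By counts Ncam2-202 led in both pools, with 49.8% and 55.8% against 43.0% and 33.6% for Ncam2-201. With the older annotation GENCODE M4 the mean TPM share of Ncam2-202 was 71.5%, against 37.4% with M21. The deposited credibility intervals (level not given in the sources used here) ran from 1.83 to 2.50 TPM for Ncam2-202 and from 1.94 to 2.77 TPM for Ncam2-201 in pool 1, so they overlapped. In pool 2 they were 2.22 to 2.96 and 1.57 to 2.38 TPM, which also overlapped. The retained-intron model Ncam2-204 (931 bases) took 20.3% and 24.7% of TPM but 3.86% and 4.92% of counts.

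The L1 family, of transmembrane proteins whose tails bind ankyrins, was represented by all 4 of its genes. Nrcam, an organiser of axon initial segments and nodes of Ranvier, was highest, at 75.1 and 84.2 TPM in pools 1 and 2. L1cam, which promotes axon growth and bundling and is mutated in a human hydrocephalus syndrome, was at 35.3 and 44.8 TPM. Nfasc, the neurofascin gene of initial segments and nodes, was at 39.15 and 38.9 TPM. Chl1, the close homolog of L1, was at 35.99 and 39.97 TPM. The means were 79.7 ± 6.44 TPM for Nrcam, 40.1 ± 6.70 for L1cam, 39.0 ± 0.177 for Nfasc and 37.98 ± 2.81 for Chl1 (SD, n = 2). Nrcam lay above the other 3 in both pools, and the values of the other 3 overlapped. This order depends on the annotation: with the older GENCODE M4, Nrcam was at 36.6 and 39.8 TPM, below L1cam (37.3 and 47.3 TPM) and Nfasc (40.9 and 40.7 TPM), and Chl1 was lowest at 22.2 and 24.4 TPM.

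L1cam (ENSMUSG00000031391.18, chrX:73853778-73896105, minus strand) has 2 small alternative coding exons, both known as features of the neuronal form. The 15-base exon lies near the start of the protein, and the 12-base exon in the cytoplasmic tail, where it completes a tyrosine-based sorting signal. Nrcam has a 12-base exon at the matching place in its tail. The exons are printed because L1cam used them unequally; capitals again mark the exon, as transcribed.
L1cam 15-base exon, chrX:73867022-73867036, minus strand: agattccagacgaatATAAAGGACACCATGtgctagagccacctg
L1cam 12-base exon, chrX:73855652-73855663, minus strand: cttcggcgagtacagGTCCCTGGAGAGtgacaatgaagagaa
Nrcam 12-base exon, chr12:44597782-44597793, plus strand: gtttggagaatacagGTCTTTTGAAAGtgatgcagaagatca

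The L1cam and Nrcam 12-base exons are identical at 8 of 12 positions, the 15 bases before them at 11 of 15 and the 15 bases after them at 9 of 15. The L1cam 15-base exon was in 99.7% of the L1cam TPM that could be assigned to holding or skipping it in pool 1, and in 100% in pool 2. Only L1cam-201 skips it, a model of 4116 bases against 5126 for L1cam-203. The estimate therefore does not rest on the 15 bases alone. For the 12-base exon the share of TPM was 29.4% and 36.1%. Most of the latter came from L1cam-209, a retained-intron model of 705 bases; by counts the exon's share was 7.01% and 16.2%. Among models annotated as protein coding it was 2.76% in pool 1 and 12.5% in pool 2. L1cam-203, the complete model without the exon, stood at 19.3 and 23.0 TPM, and L1cam-202, the complete model with it, at 0.55 and 3.29 TPM. The deposited intervals of L1cam-202 were 0.0555 to 1.75 TPM in pool 1 and 1.01 to 5.83 TPM in pool 2. These models also differ outside the exon, with 101 against 253 bases before the coding sequence, so the estimate does not rest on the 12 bases alone. In Nrcam the 12-base exon's share was 23.1% and 19.1%, and 7.36% and 6.26% among protein-coding models.

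Nrcam (ENSMUSG00000020598.16, chr12:44328885-44601964, plus strand) had 17 annotated transcripts, the most of the 10 genes. The complete models Nrcam-201 and Nrcam-202 took 26.3% and 19.0% of its TPM in pool 1, and 26.1% and 19.0% in pool 2. Nrcam-215, a long model annotated for nonsense-mediated decay, took 13.2% and 10.2%. The fragment Nrcam-214 took 9.88% and 11.2%. A 30-base exon was in 64.5% and 60.4% of the TPM that held or skipped it, and a 36-base exon in 72.2% and 71.4%. The 153-base exon of Nrcam-201 was in 41.4% and 41.8%. For each of these 3 exons the pools lay close together, but the shares depended on the scale and the models counted. By counts among protein-coding models the 30-base exon was at 49.5% and 49.3%, and the 36-base exon at 51.2% and 51.2%. The 153-base exon was then at 47.8% and 47.4%. Nrcam-215 holds the 30-base and 36-base exons, and the fragment Nrcam-214 the 36-base one. All 3 exons are held by Nrcam-201 and skipped by Nrcam-202, models of 4469 and 6275 bases. The 3 shares are therefore not independent of each other and do not rest on the exons alone.

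Nfasc (ENSMUSG00000026442.14, chr1:132564690-132741797, minus strand) and Chl1 (ENSMUSG00000030077.11, chr6:103510586-103750211, plus strand) each had several coding models with reads. Nfasc-202, the model that holds the exons of 153, 117 and 237 bases and skips those of 205 and 116 bases, took 28.3% of Nfasc TPM in pool 1 and 30.3% in pool 2, but 62.0% and 62.4% of Nfasc counts. Neuronal neurofascin is known for a mucin-like segment in place of a fibronectin domain that the glial form has. Models with the opposite choice at these exons (Nfasc-201, Nfasc-203 and Nfasc-205) summed to 13.2% and 18.6% of TPM, and to 12.6% and 15.7% of counts. Nfasc-203 had no count in pool 1, where 3 counts would be 0.0395 TPM (counting error only), and 5.32 TPM in pool 2; the deposited interval in pool 1 nevertheless reached 1.73 TPM. Nfasc-208, a shorter model of 899 codons, took 21.6% and 17.7%. The retained-intron models Nfasc-206 and Nfasc-210 took 20.2% and 10.3% of TPM in pool 1, and 16.0% and 12.01% in pool 2.

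Of the small exons of Nrcam, Nfasc and Chl1 with intermediate use, 5 are shown as transcribed, exon in capitals. The 18-base exons of Nrcam and Nfasc lie near the start of each protein and are identical at 9 of 18 positions.
Nrcam 18-base exon, chr12:44535057-44535074, plus strand: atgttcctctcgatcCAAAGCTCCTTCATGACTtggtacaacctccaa
Nfasc 18-base exon, chr1:132637864-132637881, minus strand: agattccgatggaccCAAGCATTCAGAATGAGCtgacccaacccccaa
Nrcam 30-base exon, chr12:44566840-44566869, plus strand: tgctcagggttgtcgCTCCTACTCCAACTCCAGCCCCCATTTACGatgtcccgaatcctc
Nfasc 45-base exon, chr1:132607003-132607047, minus strand: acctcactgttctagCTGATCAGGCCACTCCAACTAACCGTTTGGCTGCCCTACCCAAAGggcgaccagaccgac
Chl1 48-base exon, chr6:103666920-103666967, plus strand: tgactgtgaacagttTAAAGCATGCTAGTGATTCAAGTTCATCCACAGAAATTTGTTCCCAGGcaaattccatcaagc

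The Nfasc 18-base exon was in 49.9% and 46.9% of the relevant TPM in pools 1 and 2, and in 73.7% and 71.1% by counts. All of this lay on Nfasc-202, so the exon was not measured apart from the other exons of that model. The Nrcam 18-base exon was in 30.0% and 30.1% of the relevant TPM. Among Nrcam models annotated as protein coding that share was 4.08% in pool 1 and 0% in pool 2, the former from the fragment Nrcam-206; the rest of the TPM with this exon lay on models not annotated as protein coding. The Nfasc 45-base exon was in 89.3% and 75.1%, and the 51-base exon of Nfasc (chr1:132627872-132627922) in 10.1% and 23.5%. By counts these shares were 91.4% and 84.1%, and 5.51% and 14.1%. The 2 differences are not independent, since both include Nfasc-203, which holds the 51-base exon and skips the 45-base one. Nfasc-203 went from 0 TPM in pool 1 to 5.32 TPM in pool 2. The related models Nfasc-201 and Nfasc-205 fell from 2.65 to 1.14 TPM and from 2.50 to 0.78 TPM. The Chl1 48-base exon was in 19.8% and 19.5%, all of it on Chl1-204, which took 16.6% and 17.3% of Chl1 TPM. Chl1-204 also skips a 162-base exon and ends its coding sequence at another place than Chl1-201 and Chl1-203. The estimate therefore does not rest on the 48 bases alone. Chl1 had 2 models with the same coding sequence and different tails: Chl1-203, with 137 bases from the stop codon on, took 40.4% and 49.0% of TPM, and Chl1-201, with 3706 bases, took 26.7% and 22.6%. By counts their order turned in pool 1, with 34.8% for Chl1-203 and 42.3% for Chl1-201, and not in pool 2 (42.2% and 35.8%).

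The contactins, GPI-anchored partners of the L1 family and of Caspr proteins, differed from each other in level. Cntn2 (TAG-1), a molecule of early commissural and other pioneering axons, was at 64.9 and 67.8 TPM in pools 1 and 2, whereas Cntn1 was at 7.41 and 7.52 TPM. Cntn2 is ENSMUSG00000053024.14 at chr1:132509427-132543256, minus strand, and Cntn1 is ENSMUSG00000055022.14 at chr15:92051165-92341967, plus strand. Cntn2 and Nfasc are neighbours on the same strand of chromosome 1, with 21.4 kb between them. The single complete model of Cntn2, Cntn2-201, took 81.0% and 81.6% of TPM. For Cntn1, the 3 complete models all encode the same 1020 codons. The models Cntn1-201 and Cntn1-204 differ by 25 bases in total length. Pool 1 was estimated at 31.04% and 47.1% on them and pool 2 at 0% and 88.6%, while their sum was 78.1% and 88.6%. Cntn1-202 took 19.3% and 9.44%. The deposited interval of Cntn1-201 in pool 2, 0.0000257 to 2.70 TPM, overlapped that in pool 1, 0.702 to 3.93 TPM.

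Alcam and Dscam stand outside these families. Alcam (ENSMUSG00000022636.13, chr16:52248996-52454074, minus strand), an adhesion molecule of motor and sensory axons that also occurs on endothelium and mesenchyme, was at 29.9 and 28.0 TPM in pools 1 and 2. Its 39-base exon, printed because it was the one small exon besides that of L1cam in nearly all transcripts, was in 98.5% and 98.2% of the relevant TPM. Only Alcam-207 skips it, a model of 1917 bases against 6036 for Alcam-201. This estimate too does not rest on the exon alone. Alcam-201, the leading complete model, took 71.7% and 71.9% of Alcam TPM and 95.0% and 95.3% of its counts; the retained-intron model Alcam-202 took 11.3% and 11.6% of TPM.
Alcam 39-base exon, chr16:52268790-52268828, minus strand: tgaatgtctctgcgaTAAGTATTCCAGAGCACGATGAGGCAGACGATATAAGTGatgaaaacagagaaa
Dscam (ENSMUSG00000050272.10, chr16:96590840-97170752, minus strand), a receptor in self-avoidance and netrin responses, was lowest, at 2.59 and 3.42 TPM. It rested on 337 and 343 counts. Its complete model Dscam-201 took 92.3% and 86.2% of those counts, but 69.5% and 54.4% of TPM. The remainder lay on Dscam-202, a model of 1738 bases that lacks the start.

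Transcripts without an annotated protein-coding status took a large part of the TPM of several of these genes and a smaller part of their counts. Of the 78 annotated transcripts of the 10 genes, 45 are protein coding and 33 are not. The share of TPM on the latter was 42.2% ± 1.28 for L1cam, 37.8% ± 0.946 for Nrcam, 35.1% ± 2.53 for Nfasc and 28.4% ± 5.08 for Ncam2 (SD, n = 2). It was 4.33% ± 0.275 for Chl1 and 2.28% ± 0.403 for Cntn1, and Dscam has no such transcript. By counts the same shares were 10.0% for L1cam, 31.8% for Nrcam, 10.8% for Nfasc and 8.92% for Ncam2. In 7 of the 10 genes the TPM share was 10% or more, against 47.4% of 13227 expressed protein-coding genes; by counts it was 4 of 10, against 32.8%. The median share was 16.9% of TPM over the 10 genes and 8.61% over those protein-coding genes.

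**Figure D2:**
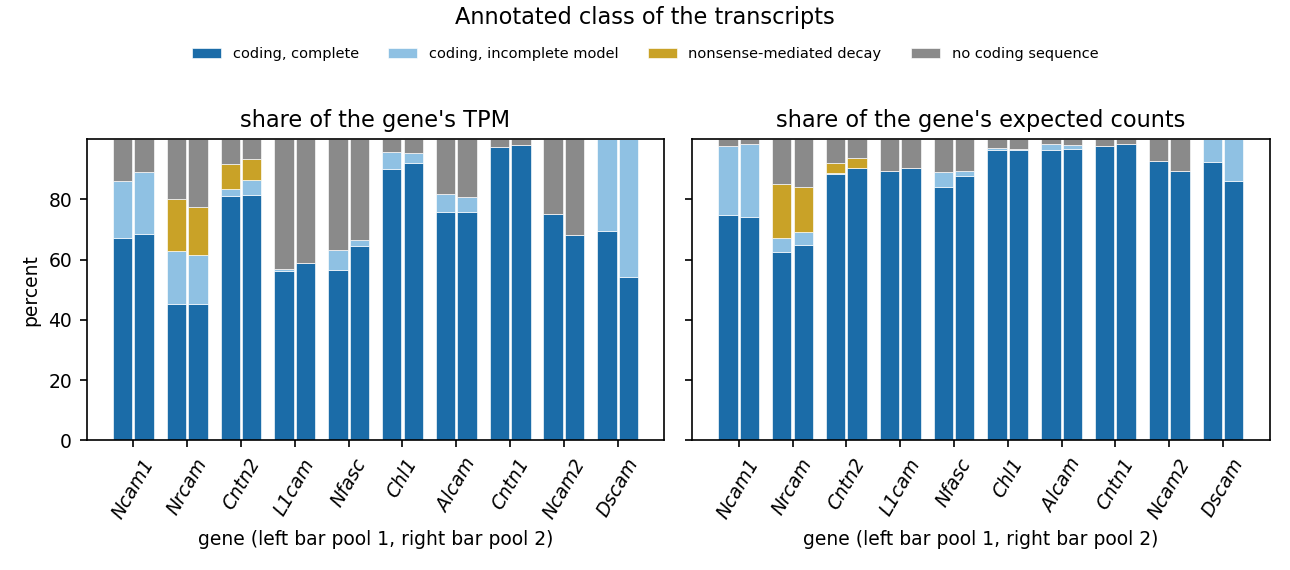
Percent of each gene's TPM (left) and expected counts (right) on transcripts of 4 annotated classes, with 1 bar per pool. The grey class without a coding sequence holds 42.2% of L1cam TPM on average and 10.0% of its counts, and Nrcam alone keeps a large non-coding and decay part on both scales.

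Counting only protein-coding transcripts changed the middle of the order. L1cam, at 20.1 and 26.3 TPM in pools 1 and 2, then had the seventh mean in place of the fourth, but its values overlapped those of Nfasc (24.7 and 25.9 TPM) and Alcam (24.5 and 22.5 TPM). Nrcam, at 47.2 and 51.8 TPM, then lay below Cntn2, at 54.1 and 58.5 TPM, in both pools. Chl1, at 34.5 and 38.2 TPM, lay above Nfasc and L1cam in both pools. Ncam1 stayed first and Cntn1, Ncam2 and Dscam stayed the last 3.

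The annotation used for counting moved 2 of the 10 genes by 1.5-fold or more. Nrcam had a mean of 79.7 TPM with GENCODE M21 and 38.2 with the older GENCODE M4, a ratio of 2.09, and Chl1 had 37.98 and 23.3 TPM, a ratio of 1.63. Of 13458 expressed protein-coding genes, 4.76% were 1.5-fold or more higher with M21 and 5.77% moved that far either way, and the median ratio was 0.952. Counts on these genes moved little: the ratio of mean counts was 1.08 for Nrcam and 1.05 for Chl1. In M4 Nrcam has 2 transcripts and a deposited gene length of 7465 bases in pool 1, and in M21 17 transcripts and 3816 bases. This gene length is a mean weighted by the estimated abundance of the transcripts. The 15 added transcripts held 54.7% of Nrcam TPM, and the 2 models kept under the same identifier held 36.1 TPM on average. Those 2 were also redrawn: Nrcam-201 has 7572 bases in M4 and 4469 in M21, and Nrcam-202 has 7362 and 6275 bases. Chl1 went from 1 transcript to 6, and the 5 added ones held 75.4% of its TPM. For L1cam, Nfasc, Cntn1, Cntn2 and Alcam no transcript was added, and their ratios lay between 0.944 and 0.957. With M4, Nrcam stood in place 5 instead of place 2 of the order, below Ncam1, Cntn2, L1cam and Nfasc. Chl1 stood in place 7 instead of place 6, below Alcam (31.7 and 29.6 TPM) in both pools.

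**Figure D3:**
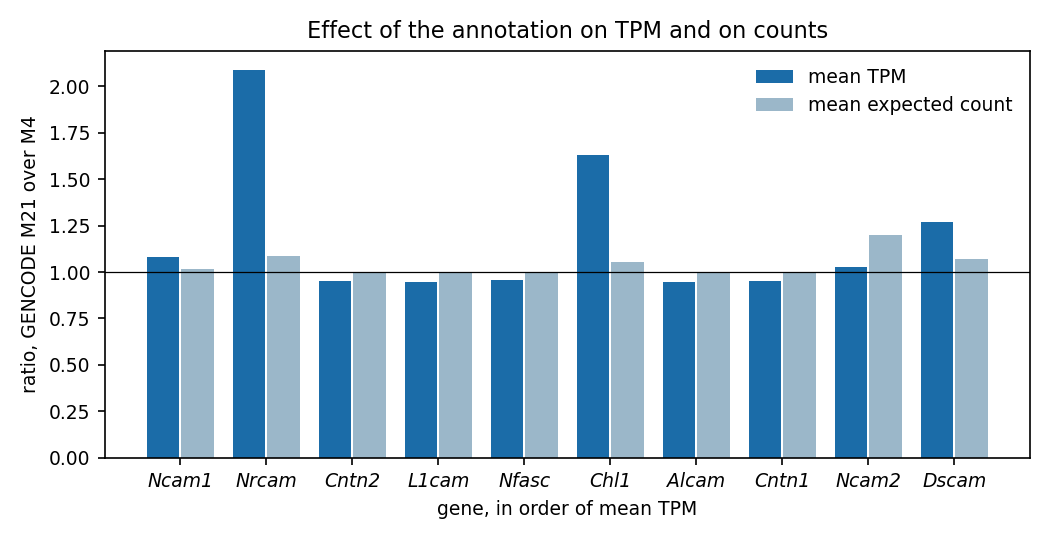
Ratio of the value with GENCODE M21 to that with GENCODE M4 for mean TPM (dark bars) and mean expected count (light bars) of each gene; the line marks no change. TPM of Nrcam and Chl1 is 2.09-fold and 1.63-fold higher with M21, while their counts are 1.08-fold and 1.05-fold higher.

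Most of these genes were long, and many of their alternative coding exons were 51 bases or shorter. They span a median of 256 kb of genome, from 33.8 kb (Cntn2) to 580 kb (Dscam), against a median of 25.0 kb for expressed protein-coding genes. An exon was counted as alternative where it lay whole inside the coding sequence of at least 1 protein-coding model and within an intron of at least 1 other. By that rule 29 coding exons in 7 of the 10 genes were alternative, against exons in 5175 of 22028 protein-coding genes (23.5%). The 10 genes also have more annotated transcripts, a median of 7 against 5 over expressed protein-coding genes, which gives the rule more models to compare. Of these exons 16 were 51 bases or shorter (55.2%), against 15.5% of 12037 such exons in all protein-coding genes. The lengths of 25 of 29 were multiples of 3, which keeps the reading frame (86.2%, against 60.3% of all). Ncam1 and the L1 family held all but 4 of them, and several lie in the same models, so the exons are not independent of each other. Cntn1, Cntn2 and Ncam2 had no exon of this kind.

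**Figure D4:**
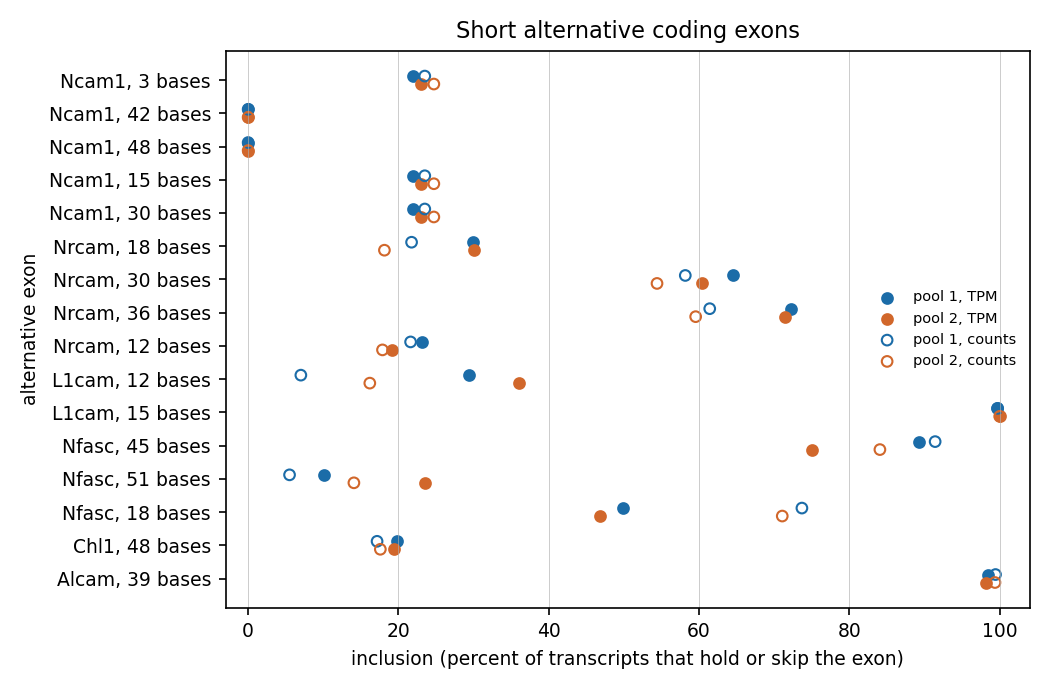
Inclusion of the 16 alternative coding exons of 51 bases or less, in percent of the transcripts that hold or skip each, by pool (blue 1, orange 2) and by TPM (filled) or expected counts (open). L1cam and Alcam each have an exon near 100%, and the 48- and 42-base exons of Ncam1 are at 0. The L1cam 12-base exon is lower by counts than by TPM in both pools, and the Nfasc 18-base exon is higher.

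The pools were alike for these genes. None differed 2-fold between pools in TMM-scaled counts (trimmed mean of M-values, a scaling for depth), where 1.00% of 14995 genes did. The largest ratio was that of L1cam, from 2236 expected counts in pool 1 to 2689 in pool 2, 1.30-fold higher in pool 2 (log2 ratio 0.38). Ncam1 followed, with 19564 and 21760 counts, 1.20-fold higher in pool 2 (log2 ratio 0.26); with spike-in scaling its log2 ratio was -0.11 and that of L1cam just below 0. Ratios at least as large in either direction were found for 8.83% of genes compared in the case of L1cam and 16.2% in that of Ncam1. Alcam, at 2673 and 2308 counts, was the one gene lower in pool 2 (log2 ratio -0.10). With TMM scaling 9 of 10 were higher in pool 2, against 51.4% of all genes, but with spike-in scaling, which moves the median of all genes to -0.37, none was. The median absolute log2 ratio was 0.10 both for these genes and for all genes compared. No test can be made between 2 replicates of 1 group.

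**Figure D5:**
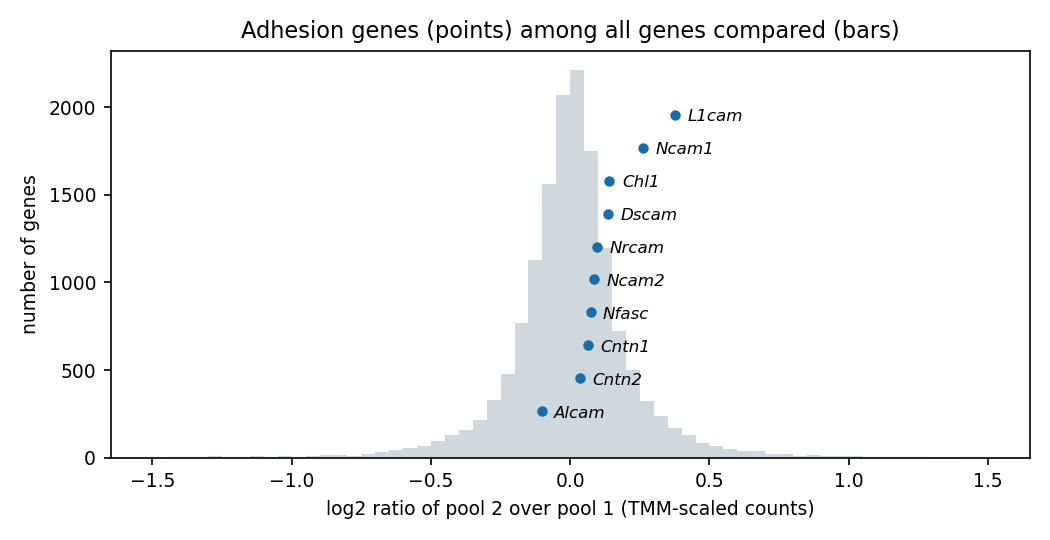
Number of genes (bars) by log2 ratio of pool 2 over pool 1 in TMM-scaled counts, for genes with 50 or more mean counts, with the 10 adhesion genes as points at their own ratio; the height of a point has no meaning, and 52 genes lie beyond the axis. All 10 points lie within the bulk of the genes, with L1cam (0.38) and Ncam1 (0.26) farthest to the right and Alcam (-0.10) to the left; with spike-in scaling all 10 ratios fall below 0.

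Markers of several cell types differed between the pools to varying degrees in TMM-scaled counts. Over all genes compared, 51.4% were higher in pool 2 and the median absolute log2 ratio was 0.098. The medians of the neuron, progenitor and endothelium lists were near that size. Spike-in scaling would lower such ratios, since it moves the median of all genes to -0.37. The summed level of the neuron markers was 2544 TPM in pool 1 and 2645 TPM in pool 2 (6 of 8 higher in pool 2 in scaled counts, median log2 ratio 0.10). That of the cranial ganglion and neural crest markers was 128 and 145 TPM (4 of 6, median 0.24). Mesenchyme markers summed to 975 and 1289 TPM (6 of 6, median 0.29), and muscle markers had a median log2 ratio of 2.34 (6 of 6). Progenitor markers went the other way, from 2548 to 2331 TPM (2 of 7 higher in pool 2, median -0.11), as did those of epithelium, from 91.1 to 53.8 TPM (0 of 4, median -0.64), and of blood, from 14226 to 11354 TPM (1 of 4, median -0.27). Choroid plexus markers summed to 336 and 396 TPM (3 of 3, median 0.18), and those of endothelium to 77.4 and 83.9 TPM (3 of 4, median 0.11). No marker of these lists was at 0 in either pool. Their part in the ratios of L1cam, Ncam1 and Alcam was not tested.

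The enzymes and partners that act on these molecules were largely present. Of 31 such genes in 6 lists, 27 reached 1 TPM in both pools, against 61.8% of protein-coding genes. So did 22 of 23 adhesion relatives in 4 lists. The Alcam ligand Cd6 was counted among the 23 and did not reach 1 TPM. Among all 54, none of the 51 with 50 or more mean counts differed 2-fold in TMM-scaled counts between pools, where 1.00% of 14995 genes did. The polysialyltransferases, which add polysialic acid to Ncam1, stood at 49.97 ± 4.72 TPM for St8sia2 and 20.0 ± 0.191 TPM for St8sia4 (SD, n = 2). Among linkers to the cytoskeleton (7 of 8 at 1 TPM or more in both pools) Rdx was at 117 ± 3.18 TPM and Ank2, an ankyrin that binds L1 family tails, at 103.4 ± 3.23 TPM. Sptbn4, the spectrin of initial segments and nodes, was lowest at 0.770 ± 0.113 TPM. Of the Caspr genes, which encode partners of contactins, 2 of 5 reached 1 TPM: Cntnap2 (22.0 ± 2.91 TPM) and Cntnap4 (2.60 ± 0.00707 TPM). Cntnap1, the Caspr of paranodes, was at 0.75 and 0.89 TPM (named after its value was seen), and Cntnap3 was lowest at 0.16 and 0.02 TPM.

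Ligands and coreceptors were all at 1 TPM or more (8 of 8), led by the proteoglycan Ncan (76.6 ± 7.50 TPM) and Fgfr1 (70.4 ± 0.827 TPM), with the matrix protein Tnr lowest at 1.04 ± 0.0495 TPM. In signalling, the growth cone protein Gap43 was at 341 ± 7.59 TPM and the phosphatase Ptpra at 102.7 ± 4.21 TPM, while the kinase Src was lowest of 5 at 26.5 ± 0.962 TPM. Among sheddases, which cut such proteins off the membrane, Adam10 was at 72.5 ± 5.70 TPM, Bace1 at 31.5 ± 0.919 TPM and Adam17 at 30.1 ± 1.97 TPM. All 3 passed 1 TPM in both pools.

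Other adhesion genes, most of them of the immunoglobulin class, ranged widely. Relatives of the contactins, Dscam and the sidekicks were low, with 7 of 7 at 1 TPM or more but a highest level of 6.71 ± 0.233 TPM (Cntn5), followed by Sdk2 (5.22 ± 0.445 TPM), and a lowest of 1.40 ± 0.530 TPM (Cntn6). The IgLON family, small GPI-anchored proteins, ran from Ntm (47.8 ± 0.481 TPM) and Lsamp (22.5 ± 2.16 TPM) down to Iglon5 (2.92 ± 0.389 TPM), 5 of 5 at 1 TPM or more. Nectins and SynCAMs (8 of 8) ran from Cadm1 (96.9 ± 5.97 TPM) and Nectin2 (49.3 ± 3.73 TPM) to Nectin4 (1.24 ± 0.0636 TPM). Of the relatives of Alcam, Bcam was at 17.8 ± 2.39 TPM and Mcam at 11.5 ± 0.431 TPM. Cd6, a T cell ligand of Alcam, had no count in either pool, which allows up to 0.0657 TPM in pool 1 and 0.0713 TPM in pool 2 (3 counts, counting error only).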

How the data were processed

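PolyA-plus RNA-seq libraries of 2 pools were used. Per the file headers and the deposited notes, the authors deposited, for each pool, gene and transcript tables on mm10 with GENCODE M21 (main) and M4, holding expected counts, TPM, FPKM and isoform percent values; the sources used here do not name the program. Deposited TPM also covers spike-in and other entries that name no gene, which were left out of the gene set; spike-ins took 3.31% and 4.25% of counts. Per the labels, 10 ng of RNA entered each library, primed with oligo-dT and fragmented by tagmentation; no molecular identifiers are named, so floors (3 counts) cover counting error only.

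The M21 annotation matched all 55536 gene identifiers to symbols. Effective length was length minus 99 bases for the members. Transcript shares are percent of the gene's transcript TPM or counts. Exon inclusion is the TPM of transcripts holding an exon over that of transcripts holding or skipping it. The sources used here do not say if reads were counted by strand. The 4 genes overlapping Ncam1, L1cam or Dscam share 99 to 417 exon bases with them, and reads there cannot be assigned with certainty.

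Expected counts were rounded for TMM scaling in edgeR 4.0.16 (prior count 0.5, 50 or more mean counts); DESeq2 1.42.0 size factors were an alternative. R 4.3.3, Python 3.11.15, pandas 2.3.3, numpy 2.4.6 and matplotlib 3.10.9 were used, and the ratio and exon steps were tested on simulated data. The members and lists were chosen with earlier results of these data known. Named were all 10 members, both polysialyltransferases, the 2 highest and the lowest gene of each other related list, and transcripts of 10% or more mean share. With 2 libraries no measure of likeness between gene patterns was computed.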

Additional observations from a re-analysis of the deposited data

How the results depend on the processing

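No paired analysis was possible because the series holds 1 group, so the replicate numbers pair nothing. Each level and share lay within 1 SD of its mean without either replicate, as 2 values must. The number of adhesion genes higher in pool 2 was 9 with TMM, DESeq2 size factors, total counts, a prior count of 5 and M4, and 0 with spike-in totals. The median share of TPM on transcripts not annotated as protein coding was 16.9% and was 5.997% when taken from expected counts. All 10 genes stayed at 1 TPM or more in both pools with M4, and 9 of 10 passed 5 TPM. Of 45 pairs of genes, 41 kept their order with M4, 40 with counts not divided by length, and 40 with protein-coding transcripts only (the last chosen after seeing the data). The top transcript was the same in 9 of 10 genes with M4 and 8 of 10 by counts. Genes 2-fold or more apart between the pools were 1.00% of those with 50 or more mean counts and 13.0% without that filter. Depth limits Dscam (337 and 343 counts) and Ncam2 (541 and 532 counts) most.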
